A study of Mus musculus with 6 samples.

Results

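A set of 5 liver enzymes of fructose, glycerate and glyoxylate metabolism was followed in livers of wild-type and Nrg4 knockout mice: Glyctk, Khk, Grhpr, Hao1 and Agxt. They are 5 of 17097 genes with a probe set assigned to a single gene on the array, and 6 of 28898 such probe sets. Glyctk was chosen by its knockout minus wild-type signal difference, seen to be low in these arrays, and the other members because they act next to it in metabolism. The knockout difference of Glyctk is therefore given as a description, with no test.

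Nrg4 encodes neuregulin 4, a secreted ligand of ErbB receptors that is enriched in brown fat. Wild-type and Nrg4 knockout mice, labelled C57BL/6, began a high-fat diet at 3 months of age, ate it for 8 weeks and were harvested random-fed, so the diet was shared by both genotypes and no chow-fed group entered the comparison. Whole liver RNA was measured on 3 Affymetrix mouse 3′ expression arrays per genotype, each carrying an independent pool. The targeted allele, the sex of the mice and the number of mice per pool are not stated in the labels, and p-values measure the spread between pools. Values are log2 RMA signals (robust multi-array average), so a difference of 1 is a 2-fold difference in signal. Signals of different probe sets are not set against each other.

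Dietary fructose is taken up by hepatocytes and phosphorylated by ketohexokinase (Khk), and the product is then split into a triose phosphate and glyceraldehyde. Glyceraldehyde can be phosphorylated by triokinase or oxidised to glycerate. Glycerate also arises from serine through hydroxypyruvate, which glyoxylate and hydroxypyruvate reductase (Grhpr) reduces, and glycerate kinase (Glyctk) returns it to glycolysis. The same reductase turns glyoxylate into glycolate. In peroxisomes, glycolate oxidase (Hao1) makes glyoxylate and alanine-glyoxylate aminotransferase (Agxt) converts it to glycine, which keeps it from becoming oxalate. Inherited loss of glycerate kinase causes D-glyceric aciduria, and loss of Agxt or Grhpr causes primary hyperoxaluria.

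The upstream sequences of Glyctk and Khk are shown because these are the members with the lowest and the highest knockout difference. Both are the 250 bases before the transcript start that RefSeq's table uses on assembly GRCm38.p6, in each case a start inside the outermost limits of the gene. Capitals mark GTTAAT on either strand, a half-site of the hepatocyte factor HNF1, and CACGTG, the E-box core.
Glyctk, chr9:106158139-106158388, minus strand: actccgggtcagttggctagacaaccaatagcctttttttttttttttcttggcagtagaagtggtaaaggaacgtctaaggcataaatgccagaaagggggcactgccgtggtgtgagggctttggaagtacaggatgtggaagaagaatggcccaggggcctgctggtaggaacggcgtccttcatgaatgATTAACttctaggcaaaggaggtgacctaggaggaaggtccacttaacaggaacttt
Khk, chr5:30921309-30921558, plus strand: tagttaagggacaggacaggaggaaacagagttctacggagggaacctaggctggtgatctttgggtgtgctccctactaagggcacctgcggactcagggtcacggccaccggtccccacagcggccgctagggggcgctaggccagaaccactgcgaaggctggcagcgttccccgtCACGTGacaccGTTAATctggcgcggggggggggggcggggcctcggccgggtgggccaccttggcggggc
GTTAAT occurred once in each of these windows and in 6.43% of 32851 such windows genome-wide. CACGTG occurred in the Khk window and in none of the other members' windows, against 6.02% of all windows. CCAAT was found in the Glyctk window and GGGCGG in those of Khk and Grhpr, against 33.8% and 32.7% of all windows. TATAAA was in none of the 5 windows and in 12.4% of all. All motifs were searched on both strands. These are letter matches, and no binding was measured.

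The arrays matched their labels and the tissue. Nrg4 read 4.77 to 4.94 in wild type and 2.43 to 2.64 in the knockout. The hepatocyte markers, Alb among them, averaged 11.36 to 11.42 in wild-type arrays and 11.36 to 11.44 in knockout arrays. Of the kidney genes with a probe set, Umod and Slc12a1 were under the limit set for dim signal, 2.66, and Kap and Slc22a6 averaged 2.79 and 2.87, just above it. Over 12466 genes above that limit, 5 genes (0.0401%) passed limma at an adjusted p under 0.05, 3 lower (0.0241%) and 2 higher (0.016%). The 3 lower genes include Nrg4 itself, and Glyctk was not left out of this fit. The number of genes that passed was 17 without knockout replicate 1 and 1 to 2 without any other array. The median log2 change over all genes was 0.04, and 36.6% of genes had a lower value in the knockout. Macrophage markers had a higher value in 8 of 8 genes (array means 5.71 to 5.92 in wild type; 5.80, 6.52 and 6.55 in knockout replicates 1, 2 and 3). Endothelial markers were higher in 7 of 8 (5.22 to 5.54 against 5.61 to 5.96), and stellate and matrix markers in 7 of 7 tested, Col1a2 being dim (5.42 to 5.64 against 5.73 to 5.89). No marker passed the test. All 3 control probe sets of 18S ribosomal RNA were lower in every knockout array: the 5′ set read 8.12 to 8.80 in wild type and 5.61 to 6.71 in the knockout, the middle set 7.92 to 8.14 and 5.74 to 6.59, and the 3′ set 7.45 to 7.73 and 6.67 to 6.89. Knockout replicate 1 had the lowest 5′ signal of actin (8.39, against 8.76 to 9.43 in the other arrays) and of Gapdh (9.41, against 9.85 to 10.28). The part of these in the values below was not tested, and in whole liver, fewer cells of a type and less RNA per cell cannot be told apart.

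Glyctk, the kinase that phosphorylates glycerate, is measured by a brighter and a dimmer probe set. The brighter one read 6.93, 6.96 and 7.03 in wild-type replicates 1 to 3 and 6.23, 6.00 and 6.10 in knockout replicates 1 to 3. Every knockout pool lay under every wild-type pool, with 0.70 between the nearest 2 pools, while the pools spanned 0.10 within wild type and 0.23 within the knockout. The log2 change was -0.87 (SE 0.09, n = 3 arrays per genotype), a signal 1.82-fold lower. This was the lowest change but 11 among the 12466 genes, and 3.92% of all genes had every knockout array below every wild-type array.

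The dimmer Glyctk probe set read 5.02, 4.82 and 5.01 in wild type and 4.63, 4.58 and 4.49 in the knockout. Again no pools overlapped, and the change was smaller, at -0.39 (SE 0.10, n = 3), or 1.31-fold. Averaged, the probe sets gave a log2 change of -0.63. The array annotation gives both the same source sequence, and their places within the transcript were not analysed here.

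Ketohexokinase, the entry step of fructose breakdown, had higher values in the knockout. Khk read 8.27, 8.34 and 8.18 in wild type and 8.48, 8.52 and 8.39 in the knockout. The pools did not overlap, the nearest pair standing 0.05 apart, less than the span within either genotype. The log2 change was 0.20 (SE 0.09, n = 3), or 1.15-fold, with a 95% confidence interval of the knockout to wild-type ratio from 1.00 to 1.32. It did not pass over all genes (limma adjusted p = 0.52).

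Grhpr, the reductase that both makes glycerate and removes glyoxylate, had the smallest SE of the members. It read 9.70, 9.62 and 9.71 in wild type and 9.79, 9.72 and 9.87 in the knockout. The highest wild-type and the lowest knockout pool were 0.02 apart. The log2 change was 0.12 (SE 0.08, n = 3, ratio interval 0.95 to 1.24), and it did not pass (limma adjusted p = 0.688). Arrays that do not overlap on the higher side, as for Khk and Grhpr, were found in 11.7% of all genes.

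The peroxisomal enzymes overlapped between genotypes. Hao1, glycolate oxidase, read 9.29, 9.51 and 9.78 in wild type and 9.61, 9.69 and 9.58 in the knockout. All knockout pools lay inside the wild-type span of 0.49, wider than the knockout span of 0.11. Its log2 change of 0.10 (SE 0.13, ratio interval 0.88 to 1.31, limma adjusted p = 0.833) turned to -0.018 without wild-type replicate 1. Agxt, the aminotransferase that disposes of glyoxylate, read 8.90, 8.73 and 8.57 in wild type and 8.69, 9.10 and 8.88 in the knockout. Its log2 change was 0.16 (SE 0.13, ratio interval 0.91 to 1.37, limma adjusted p = 0.728), and it ranged from 0.06 without knockout replicate 2 to 0.26 without knockout replicate 1. Wild-type replicate 3 had the highest Hao1 and the lowest Agxt of the 6 arrays. Knockout replicate 2, in contrast, had the highest Agxt and the next highest Hao1. The Pearson correlation of Hao1 and Agxt over the 6 arrays was -0.26. The intervals reach ratios of 1.31 for Hao1 and 1.37 for Agxt, so equal levels are not shown.

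**Figure D1:**
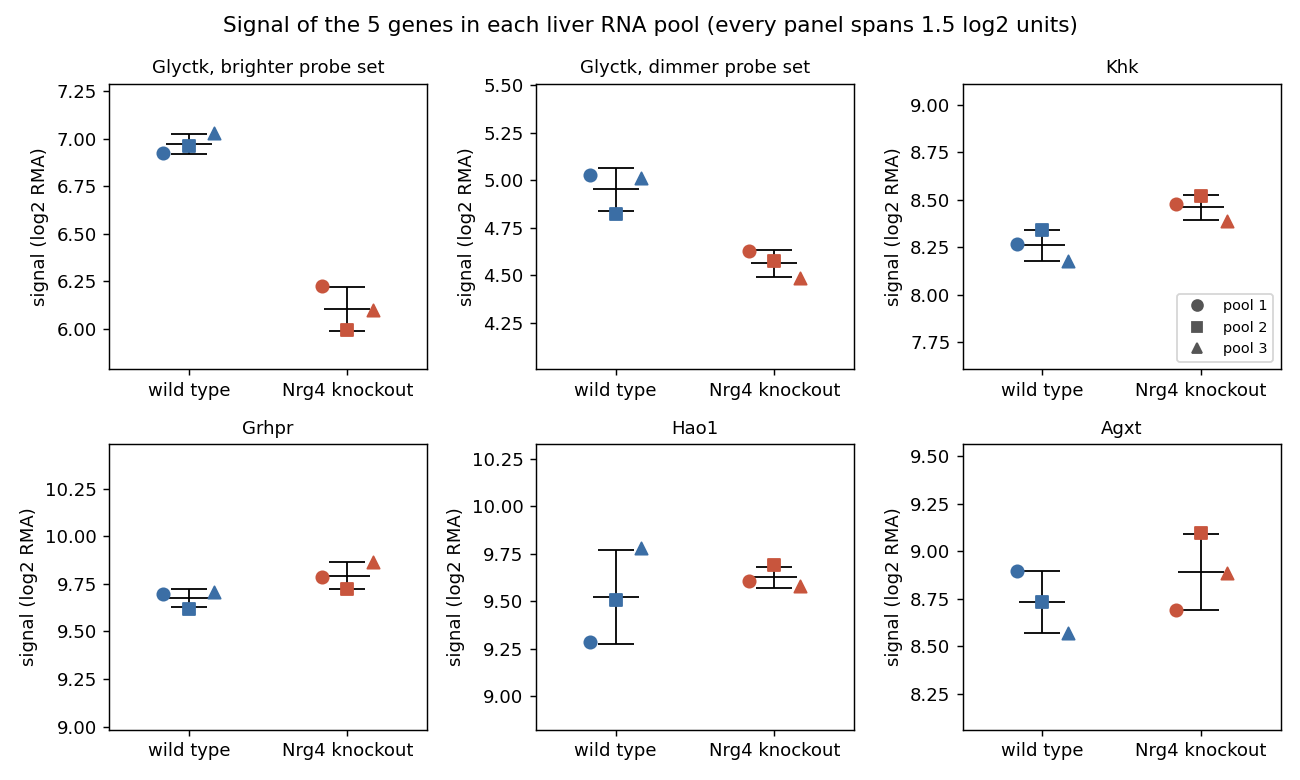
Log2 RMA signal (vertical axis) of the 6 probe sets of Glyctk, Khk, Grhpr, Hao1 and Agxt in 3 wild-type and 3 knockout pools; points are pools, shapes give the pool number, and bars are the mean ± SD of 3. Both Glyctk probe sets are lower in every knockout pool, Khk and Grhpr are higher by small margins, and Hao1 and Agxt overlap.

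**Figure D2:**
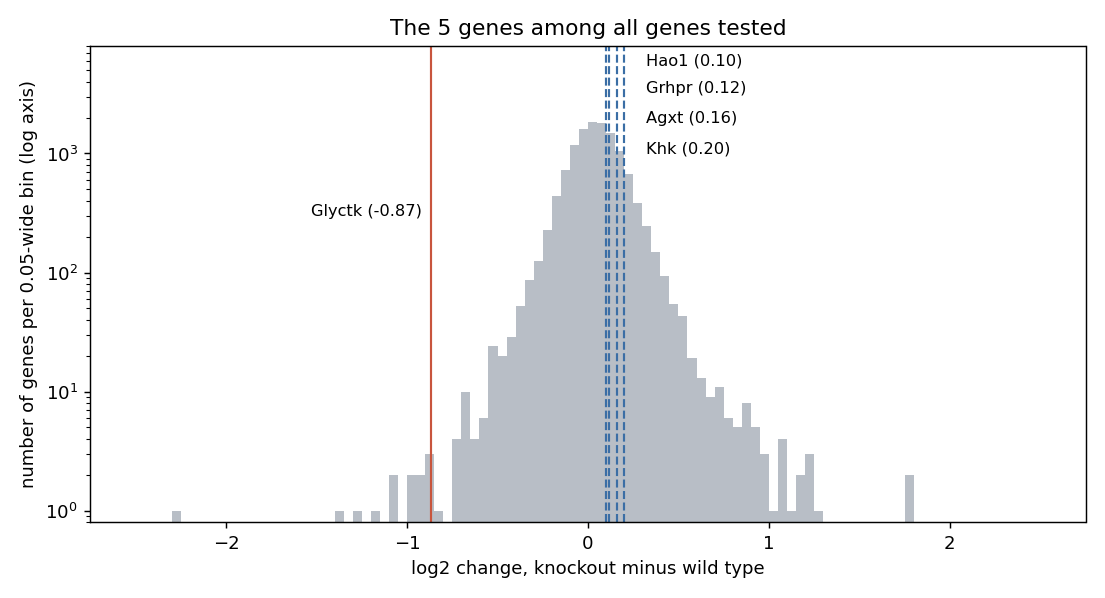
Number of genes (log axis) by log2 change, knockout minus wild type, over 12466 genes, with the 5 members as lines. Glyctk at -0.87 stands in the lower tail, and Hao1, Grhpr, Agxt and Khk lie between 0.10 and 0.20.

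The genes whose signal followed each member most closely over the 6 arrays were found by Pearson correlation, as a description in which the points share the genotype difference. For Glyctk these were Ceacam18 (r = 0.989), Trappc4 (0.988), Adh4 (0.987), Nrg4 itself (0.985) and Rdx (0.977). All of them were lower in every knockout array, which follows from their correlation with Glyctk, chosen for that difference. Trappc4, Nrg4 and Rdx are on chromosome 9, as is Glyctk. Of the 12466 genes tested, 689 are on that chromosome, and whether these 3 exceed that share was not tested. Khk was followed by 1700123O12Rik (0.989), Adcy9 (0.985) and Pacsin2 (0.984), and Grhpr by Macf1 (0.986), Slc35d1 (0.985) and Spint1 (0.984). Hao1 was followed by Ces3b (0.988), Otud7a (0.986) and Tnfaip3 (0.979), and Agxt by Fam149b (0.997), Eloa (0.993) and Atp23 (0.990). No gene appeared beside more than 1 member, but with 5 or 3 genes kept for each, this says little about shared patterns.

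Glyctk lies on chromosome 9 with Nrg4, with 344 genes that have a probe set between them, and its neighbours were examined. Khk, Grhpr, Hao1 and Agxt lie on chromosomes 5, 4, 2 and 1. Of the 15 genes with a probe set on each side of Glyctk, 21 were tested and 9 were dim. At an unadjusted limma p under 0.01 stood 6 of the 21 (28.6%), 3 lower and 3 higher in the knockout, against 2.82% of all genes and 7.26% of the genes on chromosome 9. In the same windows around the other 4 members it was 3 of 88 genes (3.41%). Glyctk was chosen for its low value and the others as its pathway neighbours, so these windows were not picked alike. Around Glyctk the count was 4 to 5 when any 1 array was left out. None of the 21 passed at an adjusted p under 0.05, and their median log2 change was -0.01.

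The next gene with a probe set beyond Glyctk, Wdr82, had lower values too. Wdr82 encodes a subunit of histone methyltransferase complexes. It read 6.31, 6.43 and 6.44 in wild type and 5.77, 6.09 and 5.97 in the knockout, with no overlap (log2 change -0.45, SE 0.10, limma adjusted p = 0.239). In RefSeq's order, a microRNA gene alone, Mir135a-1, stands between the starts of Glyctk and Wdr82, and that gene overlaps Glyctk.

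Abhd14a and Abhd14b, which encode alpha/beta hydrolase proteins, stand at places 9 and 10 on the same side and overlap each other. Abhd14a read 6.10, 6.02 and 6.14 in wild type and 5.36, 5.42 and 5.51 in the knockout (log2 change -0.65, SE 0.09, limma adjusted p = 0.0597). Its other probe set stood at -0.17 (SE 0.12). Abhd14b read 8.81, 8.76 and 8.63 against 8.35, 8.23 and 8.34 (-0.43, SE 0.09, limma adjusted p = 0.201). Pik3r4, at the fourth place on the other side, also did not overlap (-0.42, SE 0.14) and was named after its values were seen. By the brightest probe set of each gene, these 4 are the genes of the 21 tested in the window whose knockout arrays were all lower. Over all genes that share was 3.92%. Parp3, a poly(ADP-ribose) polymerase at place 13, overlapped by its brightest probe set (-0.10, SE 0.11), while a dimmer one read 6.16, 6.08 and 6.29 in wild type and 5.60, 5.38 and 5.73 in the knockout (-0.61, SE 0.11), and its remaining one stood at 0.15.

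Neighbours with higher values stood on both sides of Glyctk too. Knockout arrays were all higher for 3 of the 21 tested, against 11.7% of all genes. Acy1, aminoacylase, beside Abhd14a, read 6.58, 6.32 and 6.28 in wild type and 6.70, 6.85 and 6.93 in the knockout (0.44, SE 0.11, limma adjusted p = 0.291). Nudt16, a nucleoside diphosphatase, stood at 0.49 (SE 0.11, limma adjusted p = 0.201), and its other probe set at 0.36. Dusp7, a phosphatase of MAP kinases, stood at 0.49 (SE 0.13, limma adjusted p = 0.291), but another probe set of it at 0.07. The mean of its probe sets, a dim one included, was 0.19. Tlr9 (-0.02) and Alas1 (-0.01), which stand between Wdr82 and Dusp7, differed little. Of the nearest 3 on each side, Col6a4 stood at 0.04, and Col6a5, Twf2 and D030055H07Rik were dim. D030055H07Rik, a noncoding gene that overlaps Glyctk, read 2.34 to 2.56 in wild type and 2.43 to 2.75 in the knockout.

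**Figure D3:**
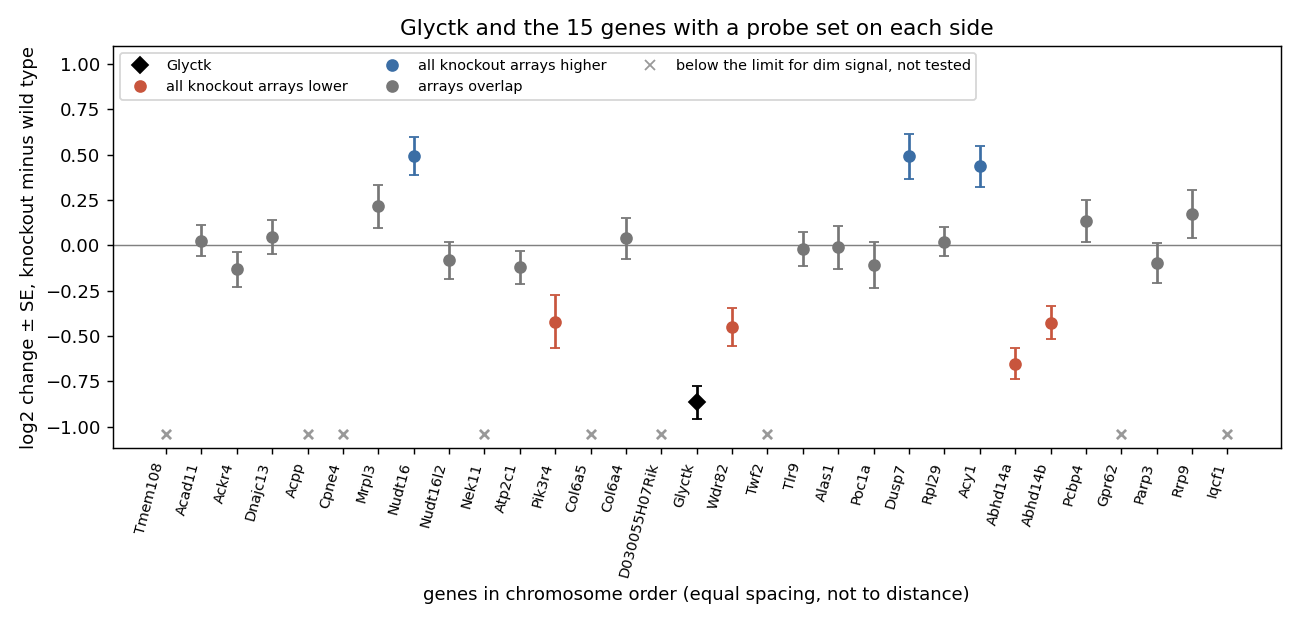
Log2 change ± SE, knockout minus wild type (vertical axis), of Glyctk and its 30 neighbours with a probe set, in chromosome order with equal spacing; crosses mark dim genes, which have no value. Wdr82, Abhd14a, Abhd14b and Pik3r4 are lower and Nudt16, Acy1 and Dusp7 higher without overlap of arrays. Over all genes, 3.92% were lower and 11.7% higher without overlap.

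**Figure D4:**
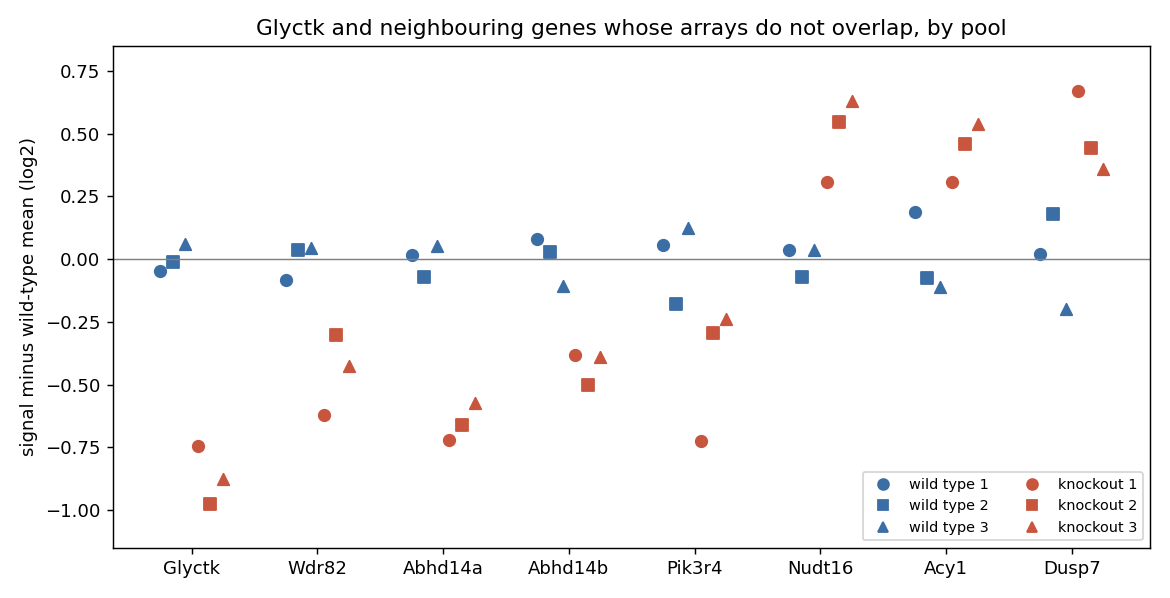
Signal in each pool minus the gene's wild-type mean (log2, vertical axis) for Glyctk and the 7 neighbours whose arrays do not overlap; colours give the genotype and shapes the pool. The knockout pools of Glyctk lie lowest, and those of Nudt16, Acy1 and Dusp7 lie above 0.

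In the wider pathways, Glyctk was the lowest gene, but it was chosen for its low value. Over 4 lists of 73 genes, 53 genes were tested, and 41 had a higher and 12 a lower value in the knockout, where 63.4% of all genes were higher. Of the 52 genes other than Glyctk, whose test is not reported, none passed limma at an adjusted p under 0.05. An unadjusted limma p under 0.05 was found for 6 of them (11.5%), against 9.55% of all genes. The macrophage, endothelial and matrix markers given above were higher in the same arrays, and their part in these values was not tested.

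Of 11 fructose and polyol genes tested, 10 had a higher value (median log2 change 0.06, and 0.04 without knockout replicate 3). Tkfc, the triokinase that takes the other route for glyceraldehyde, read 5.60, 5.22 and 5.64 in wild type and 6.02, 5.76 and 5.68 in the knockout (log2 change 0.33, SE 0.14, limma adjusted p = 0.511). Its pools did not overlap, and the change was 0.20 without wild-type replicate 2. Slc2a2, the main hepatocyte hexose transporter, stood at 0.10 (0.05 without knockout replicate 1, 0.17 without knockout replicate 3). Gckr stood at 0.09 (0.01 without wild-type replicate 3, 0.18 without wild-type replicate 1). Slc2a5, the fructose transporter best known from gut, was the lower gene at -0.13, and Mlxipl, which encodes the carbohydrate-responsive factor ChREBP, stood at 0.06.

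Of 13 glycerate and serine genes, 10 had a higher value (median 0.12, and 0.14 without Glyctk). Gpt2, mitochondrial alanine aminotransferase, read 9.16, 9.29 and 9.34 in wild type and 9.48, 9.68 and 9.77 in the knockout. Its log2 change was 0.38 (SE 0.10, limma adjusted p = 0.321), and its other probe sets stood at 0.51 and 0.32. Aldh1b1, a mitochondrial aldehyde dehydrogenase, read 5.12, 5.20 and 5.43 against 5.48, 6.22 and 6.88. Its log2 change of 0.95 (SE 0.29, limma adjusted p = 0.365) came with an SD of 0.70 among knockout pools, and it was 0.60 without knockout replicate 3. Knockout replicate 1 lay close to wild type. Phgdh, the first enzyme of serine synthesis, stood at 0.44 (SE 0.15) with overlapping pools. It stood at 0.21 when averaged with its other probe set, which was dim. Gpt stood at 0.21 (SE 0.09), and at 0.14 without wild-type replicate 3. The list's median was 0.07 without knockout replicate 2. Psat1, the next enzyme of serine synthesis, was dim.

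Of 14 glyoxylate and oxalate genes, 9 had a higher value (median 0.11). Gldc, the glycine decarboxylase of the glycine cleavage system, read 6.35, 6.27 and 6.11 in wild type and 6.65, 6.95 and 7.33 in the knockout. No pools overlapped, and the log2 change was 0.74 (SE 0.16, limma adjusted p = 0.227). Hoga1, which releases glyoxylate in hydroxyproline breakdown, stood at 0.20 (SE 0.10), and at 0.12 without knockout replicate 3. Got2, mitochondrial aspartate aminotransferase, stood at 0.12 (SE 0.08), and another probe set of it at 0.16. The mean of its probe sets was 0.00017, but this includes a dim one. That dim probe set read 2.68 to 2.87 in wild type and 2.46 to 2.55 in the knockout. Slc26a1, a sulfate and oxalate transporter, read 7.20, 7.28 and 7.13 in wild type and 7.11, 7.00 and 6.81 in the knockout (-0.23, SE 0.10, limma adjusted p = 0.531; -0.15 without knockout replicate 3). The list's median was 0.05 without knockout replicate 2. Hao2 and Dao were dim in these livers.

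Hao1 and Agxt work in peroxisomes, and the peroxisome list gave 13 of 16 genes with a higher value (median 0.05, close to the 0.04 of all genes). Without knockout replicate 1 the list's median was 0.10 and that of all genes 0.06. Pex26, a peroxisomal membrane anchor of the import machinery, stood at 0.29 (SE 0.10, limma adjusted p = 0.421). Pxmp2 stood at 0.16 (0.10 without knockout replicate 3, 0.25 without knockout replicate 1). Pex2 stood at 0.18 and Pex16 at 0.13, and Pex5, the receptor for the C-terminal import signal, at 0.06.

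**Figure D5:**
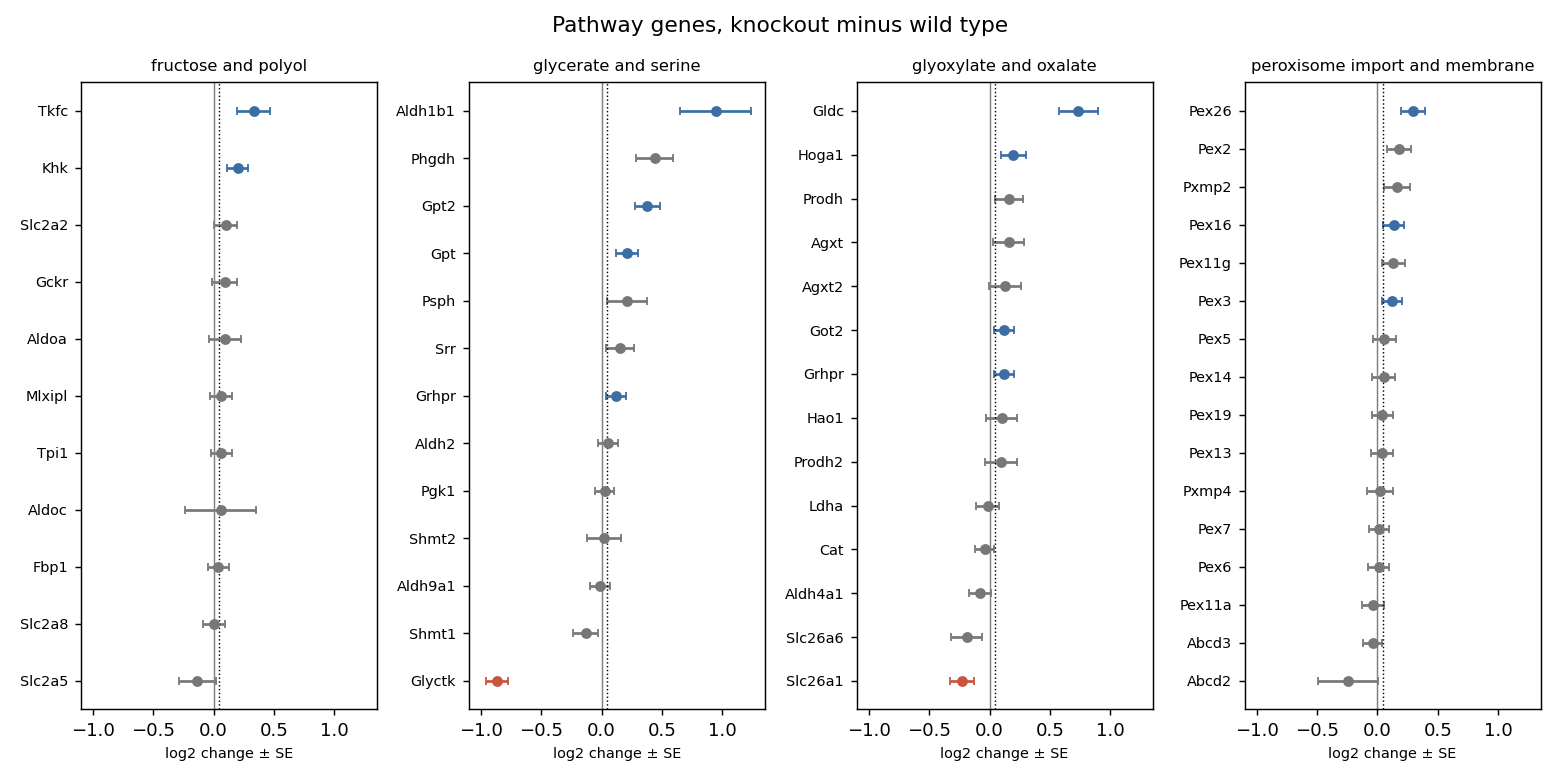
Log2 change ± SE, knockout minus wild type (horizontal axis), of the tested genes of 4 pathway lists; orange and blue mark genes whose knockout arrays were all lower or all higher, grey those that overlap, and the dotted line the median of all genes, 0.04. Glyctk, chosen for its low value, is the lowest point and Aldh1b1 the highest, and most genes lie close to the dotted line.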

How the data were processed

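Biotinylated RNA was made from 250 ng of liver RNA, per the labels. The authors deposited log2 values; per the submitters' processing notes affy, RMA and limma were used, with versions not given in the sources used here. RMA normalizes arrays by quantiles, which would reduce a shift shared by most genes. Array medians were 2.98 to 3.04.

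Of 45141 probe sets, 28898 had 1 gene symbol, updated by gene number through RefSeq (GRCm38.p6). Of several probe sets of a gene the brightest on average was used. A limit for dim signal at the 40th percentile of all probe set means (2.66) kept 12466 of 17097 genes for testing. All 5 members passed this limit by a wide margin in both genotypes.

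Genotypes were compared with limma 3.58.1 (lmFit, eBayes, two-sided) under R 4.3.3. P-values were adjusted by Benjamini-Hochberg over the whole table, and confidence intervals come from the same fit. The fit was tested on simulated data. The smallest exact permutation p for this design is 0.1. The named genes are all members, the 4 genes of smallest p in each pathway list, the nearest 3 neighbours on each side of Glyctk and other neighbours at an unadjusted p under 0.01, and the 5 (Glyctk) or 3 genes most correlated with a member; the other genes named were chosen after their values were seen. Neighbours were taken from RefSeq's gene order. The members and lists were chosen with earlier results of these data known. Alternatives were another quantile normalization, median centring, no filter or the 60th percentile, a robust prior, a variance trend, averaging a gene's probe sets, array weights, leaving out each array, and the replicate number as a block. Figures were drawn with matplotlib 3.10.9.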

Additional observations from a re-analysis of the deposited data

How the results depend on the processing

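Among the members, the log2 changes of Khk, Grhpr and Agxt kept their sign and stayed short of the threshold in all 15 alternatives, and that of Hao1 in all but 1, where it turned to -0.018 without wild-type replicate 1. Leaving out single arrays gave 0.16 to 0.24 for Khk, 0.08 to 0.15 for Grhpr, -0.018 to 0.23 for Hao1, 0.06 to 0.26 for Agxt and -0.93 to -0.81 for Glyctk. The mean of its probe sets moved Glyctk to -0.63, since the dimmer one changed less. The number of genes called moved most: from 5 to 8 with quantile normalization again, 50 with array weights, 29 with a variance trend, 3 with the 60th percentile filter, 3 when probe sets were averaged, 30 at an adjusted p under 0.10, and 1 to 17 without single arrays. The cause was not tested. With the replicate number as a block it was 2. Same-numbered arrays correlated at -0.15, 0.03 and -0.01 in their deviations from group means. With 3 arrays per genotype, these values cannot decide whether the numbers pair the samples. Abhd14a, short of the threshold as reported, passed with quantile normalization again (adjusted p = 0.0452), array weights (0.0279) and a variance trend (0.0273), and Nudt16 with array weights (0.0463). The fructose list median of 0.06 was 0.090 with array weights, 0.092 when probe sets were averaged, and 0.039 to 0.096 without single arrays; those of the glycerate list were 0.070 to 0.13, of the glyoxylate list 0.049 to 0.12 and of the peroxisome list 0.030 to 0.099, highest without knockout replicate 1. Averaged probe sets gave 0.063 for the glycerate and 0.019 for the peroxisome list, and quantile normalization again 0.019 for the latter. The median of all genes moved too. It was 0.036 with averaged probe sets, 0.018 with quantile normalization again and 0.054 with array weights. Without single arrays it ranged from 0.034 (knockout replicate 3 left out) to 0.061 (knockout replicate 1 left out). Tlr9, near 0, changed sign with array weights (0.015) and ranged from -0.083 to 0.034 without single arrays, and Col6a4 from -0.049 to 0.12. Among the genes of the 4 pathway lists other than Glyctk, whose test is not reported, none passed in any alternative run. The number of arrays limits the precision.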
